A study of Mus musculus with 10 samples.

Results

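The genes described here are 32 genes of the cell cycle and DNA replication, taken by symbol from a list whose rule uses no measured value, and grouped here by role. The members and the wider lists used below were, however, chosen with earlier results of these data known. They comprise 3 genes of the G1/S kinase and its cyclins, 7 of the replicative helicase, 4 of the sliding clamp and nucleotide synthesis, 9 mitotic kinases, cyclins and checkpoint genes, 2 of the anaphase-promoting complex, and 7 of the spindle, kinetochore and chromatin. All 32 symbols were found in both of the authors' comparison tables, and their transcripts were summed among 29893 genes in each library. All 32 also passed a filter of at least 10 counts over the libraries together with edgeR's minimum expression rule, which kept 13384 genes for testing. A gene absent from neutrophils could pass that filter through its monocyte counts alone.

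RNA was sequenced from neutrophils and from CCR2+ monocytes that had been sorted from the lungs of NOD/scid mice at tumour endpoint. The mice carried either HCl-001, called TN1 and described in the labels as highly metastatic, or HCl-002, called TN2 and described as low metastatic. Each cell type had 2 TN1 libraries, with tag_191 and tag_482, and 3 TN2 libraries, with tag_367, tag_706 and tag_1341, which made 10 libraries in 4 groups. The labels do not say that tags are separate animals, so every p-value measures the spread between these samples. All groups shared the strain, the organ and the endpoint, every library came from a tumour-bearing mouse, and the strain lacks mature T and B cells.

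Cells that commit to division switch on a first wave of genes through E2F factors, among them cyclin E, the MCM helicase subunits and nucleotide synthesis enzymes, which license and copy the genome. A second wave, driven by the MuvB complex with B-MYB and FOXM1, supplies cyclin B, mitotic kinases and spindle proteins, which the anaphase-promoting complex later destroys. Neutrophils and classical monocytes arise from dividing precursors in bone marrow, and both are regarded as largely non-dividing once mature. Where the transcripts of these genes in the lung libraries came from was not tested. In bulk libraries of this kind, fewer cells that express a gene and less RNA of it per cell cannot be told apart.

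Estimated counts per library ran from 7239218 to 11311370, with 5 counts or more at 8851 to 15211 genes. Both TN1 tag_482 libraries had the highest share of mitochondrially encoded TPM of their cell type, 3.0% in neutrophils against 0.283% to 0.813% elsewhere, and 19.9% in monocytes against 4.82% to 5.82%. The neutrophil markers summed to 138596 to 211212 TPM in neutrophils and 465 to 8794 TPM in monocytes, and all 10 were lower in monocytes. Monocyte markers summed to 325 to 1753 TPM in neutrophils and 3229.5 to 16384 TPM in monocytes. Monocytes of TN2 tag_706 had the highest sums of progenitor markers (131 TPM, against 10.9 at the lowest among monocytes), natural killer and lymphocyte markers (591 TPM), epithelial markers (498 TPM) and stromal markers (1850 TPM).

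Short motifs known from both gene waves occurred near the start sites of many of these genes in RefSeq promoters of GRCm38.p6. Of the 32 genes, 26 matched the table used here, with 27 promoters of 300 bases each, 250 of them before the start site. The CHR element of late cell cycle genes, searched as TTTGAA or TTCGAA on both strands, occurred in 14 of the 27 promoters (51.9%) and in 19.2% of all 32851 promoters. The CCAAT box, which often lies near it, occurred in 22 promoters (81.5%) against 37.4% of all, and the pair together in 51.9% against 7.52%. The E2F element, searched as TTTCCCGC, TTTCGCGC, TTTGCCGC or TTTGGCGC, occurred in 6 promoters (22.2%) against 2.26% of all, and 4 of those 6 belonged to helicase genes. A CHR match occurred in 5 of 7 promoters of the mitotic kinase group, 2 of 2 of the anaphase-promoting complex, 4 of 5 of the spindle and chromatin group and 0 of 4 of the clamp and nucleotide group. Matches are letters only and were not tied to binding in these cells.

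The 160 bases before the start site are shown for 5 genes that recur below, 5′ to 3′ on the gene's strand, with matches to the 3 motifs in capitals. Mcm2 (chr6:88898781-88898940, minus strand) and Mcm5 (chr8:75109349-75109508, plus strand) encode helicase subunits, and Mcm5 has 2 overlapping E2F matches and 2 CCAAT boxes while Mcm2 has a CHR match. Hmgb2 (chr8:57511683-57511842, plus strand), the most abundant gene of the set, has a CHR match between 2 CCAAT boxes. Top2a (chr11:99024190-99024349, minus strand) and Mki67 (chr7:135716380-135716539, minus strand), both classical proliferation markers, have 3 and 2 CHR matches. None of these stretches overlapped a GENCODE exon.
Mcm2: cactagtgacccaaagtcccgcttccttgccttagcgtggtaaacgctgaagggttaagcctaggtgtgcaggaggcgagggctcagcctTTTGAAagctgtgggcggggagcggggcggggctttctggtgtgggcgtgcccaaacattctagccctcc
Mcm5: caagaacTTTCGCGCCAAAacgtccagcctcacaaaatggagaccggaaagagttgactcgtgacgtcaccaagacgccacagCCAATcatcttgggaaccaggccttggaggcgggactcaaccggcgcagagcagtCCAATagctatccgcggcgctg
Hmgb2: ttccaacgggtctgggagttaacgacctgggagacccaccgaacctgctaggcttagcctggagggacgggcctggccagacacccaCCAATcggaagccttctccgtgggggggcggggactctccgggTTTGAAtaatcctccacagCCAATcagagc
Top2a: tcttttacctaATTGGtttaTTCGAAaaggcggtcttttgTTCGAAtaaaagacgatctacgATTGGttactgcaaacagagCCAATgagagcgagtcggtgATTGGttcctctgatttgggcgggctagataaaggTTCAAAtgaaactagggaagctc
Mki67: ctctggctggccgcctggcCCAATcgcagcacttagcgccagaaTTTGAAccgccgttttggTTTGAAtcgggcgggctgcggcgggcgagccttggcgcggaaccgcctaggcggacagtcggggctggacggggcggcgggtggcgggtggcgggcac

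Hmgb2 and Pcna were the most abundant genes of the set in both cell types, ahead of the other 30. Hmgb2, which encodes a DNA-bending chromatin protein, averaged 208 ± 22.3 TPM in neutrophils and 57.7 ± 9.47 TPM in monocytes (SD, n = 5 each). Pcna, the sliding clamp of DNA polymerases, averaged 36.8 ± 7.04 TPM in neutrophils and 80.2 ± 14.2 TPM in monocytes. Together this pair made up 76.8% to 89.5% of the summed TPM of the set in neutrophils and 38.6% to 49.0% in monocytes. No other gene exceeded a mean of 15.2 TPM in either cell type, the value of Cdk2 in monocytes. The lowest gene, Cenpf, a kinetochore protein, averaged 0.0855 ± 0.0877 TPM in neutrophils and 0.320 ± 0.394 TPM in monocytes.

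Summed over all 32 genes, TPM overlapped between cell types, at 271, 349, 336, 289.7 and 245 in neutrophils of tag_191, tag_482, tag_367, tag_706 and tag_1341 and at 295, 303, 258, 419.5 and 249.5 in monocytes of the same tags. Without Hmgb2 and Pcna the neutrophil sums were 37.1, 80.8, 73.1, 30.3 and 47.5 TPM, and the monocyte sums were 151, 158, 133, 258 and 136 TPM. In TPM every monocyte library then lay above every neutrophil library. Monocytes of TN2 tag_706 had the highest sum and also the highest sums of progenitor, lymphocyte and stromal markers. Most of that progenitor sum came from Cd34 (87.2 TPM) and Kit (25.5 TPM), with Myb and Sox4 at 0.449 and 0.838 TPM. Flt3, on the same list, was higher in monocytes of TN1 tag_482 (27.0 TPM) than in those of TN2 tag_706 (10.6 TPM). In counts scaled to a common library size by the TMM method (CPM, the scale of the tests), the same 30 genes summed to 82.3 to 169 in neutrophils and 167 to 276 in monocytes. There the ranges overlapped, since neutrophils of tag_482 and tag_367 lay just above monocytes of tag_1341. Markers of neutrophil precursors of the primary granule stage summed to 5.66 to 13.1 TPM in neutrophils and 8.46 to 128 TPM in monocytes, and 1 of the 6 tested was called higher in monocytes and 0 lower. Prtn3 made up most of the monocyte sum, at 8.19 to 105.5 TPM against 1.05 to 9.31 TPM in neutrophils. Elane reached 6.83 TPM in monocytes and 0.873 TPM in neutrophils, Ctsg 7.75 and 0.283 TPM, and Mpo 1.11 and 2.90 TPM, while Gfi1 was at 0 in all monocyte libraries. Also called higher in monocytes were 1 of 6 progenitor, 4 of 7 dendritic cell and 4 of 7 macrophage markers tested, with 1 macrophage marker lower, against 15.5% of all genes higher and 12.4% lower. Markers of immature neutrophils of the secondary granule stage went the other way, with 4 of 6 called lower in monocytes and 0 higher. Their sums were 1658 to 14667 TPM in neutrophils, highest in TN1 tag_482, and 66.8 to 11258.5 TPM in monocytes. Chil3, also on the monocyte list, made up most of the monocyte sums. Of the lymphocyte, erythroid, epithelial and stromal markers edgeR called 0. The part of such cells in the sums was not tested. TPM is relative to each library's other transcripts. Across all genes tested with counts in both cell types, the TPM ratio of monocytes to neutrophils exceeded the TMM-scaled ratio by a median log2 of 0.81.

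**Figure D1:**
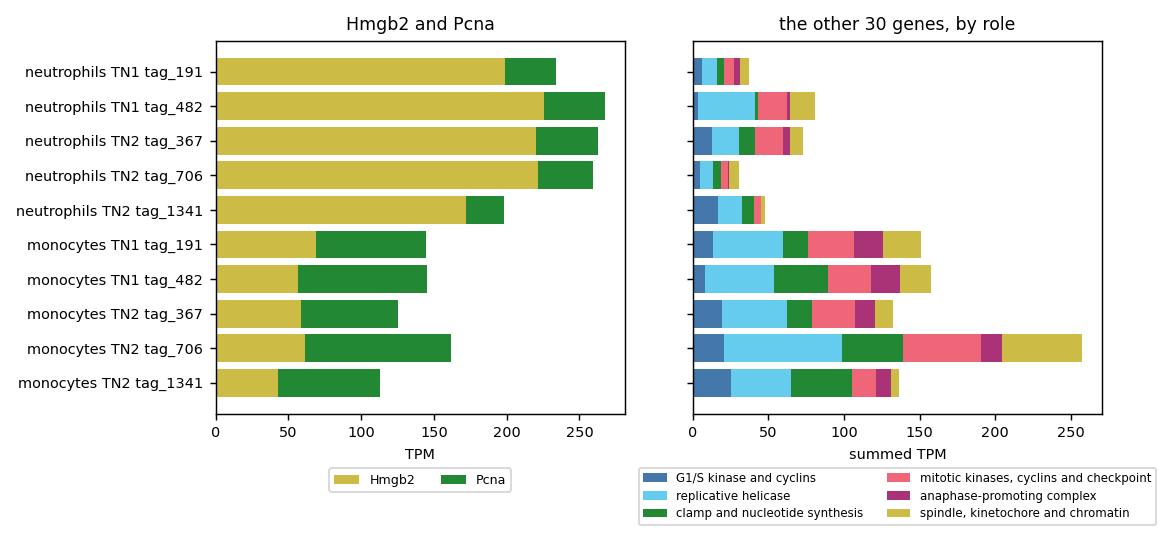
Summed TPM (horizontal axis) per library (vertical axis) for Hmgb2 and Pcna (left) and for the other 30 genes stacked by role (right). The 5 neutrophil and 5 monocyte libraries are named by tumour and tag. In the right panel the monocyte bars run from 133 to 258 TPM and the neutrophil bars from 30.3 to 80.8 TPM.

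Detection differed among libraries of one cell type. At least 5 counts were seen for 24, 20, 24, 21 and 13 genes of the set in neutrophils of tag_191, tag_482, tag_367, tag_706 and tag_1341, and for 31, 18, 31, 32 and 25 genes in monocytes. Genes with 0 counts numbered 4, 10, 4, 6 and 12 in neutrophils and 0, 7, 1, 0 and 1 in monocytes. Monocytes of TN1 tag_482 had fewer genes of the set at 5 counts than 4 of the 5 neutrophil libraries. Over all genes, 5 counts or more were seen at 11799, 8851, 11803, 12028 and 9717 genes in neutrophils, in the same order. In monocytes the numbers were 12240, 9732, 12905, 15211 and 11595. Monocytes of TN1 tag_482 were thus the lowest monocyte library over all genes too, so low detection there was not particular to the set.

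**Figure D2:**
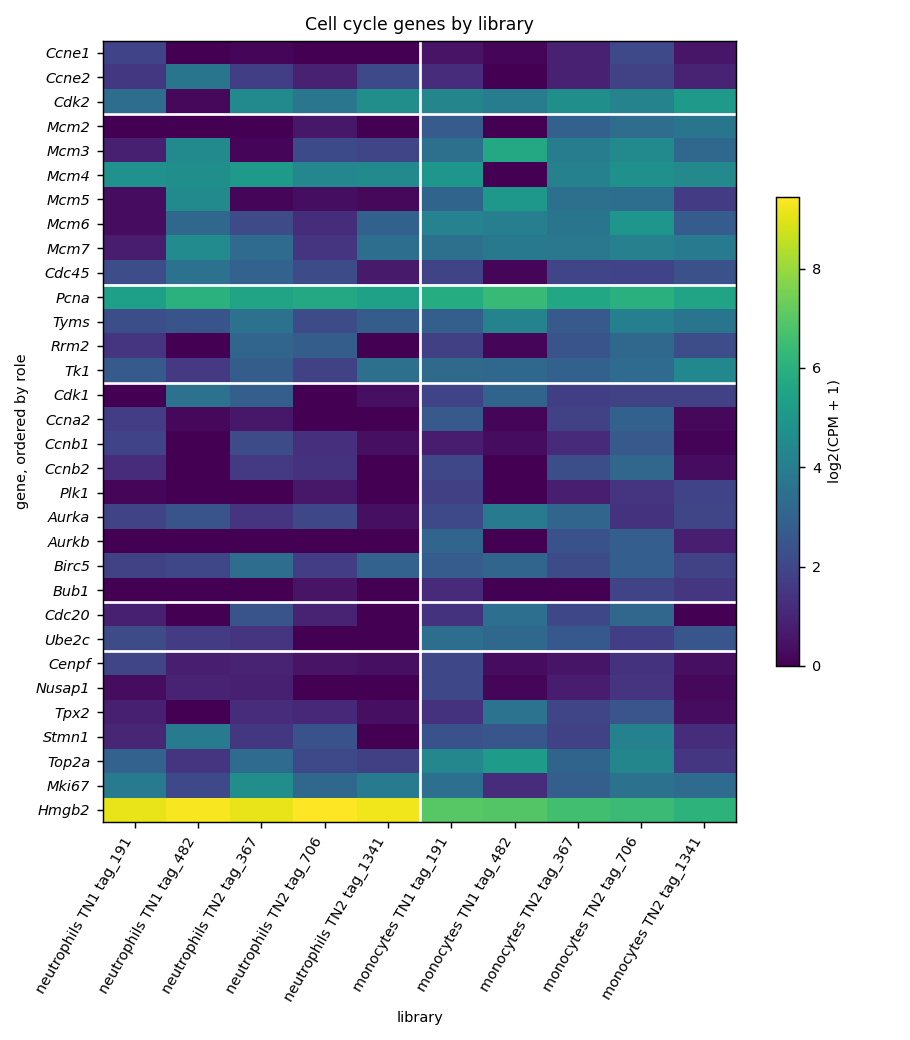
Heat map of log2(CPM + 1) for the 32 genes (rows, by role) in 10 libraries (columns, by cell type, tumour and tag). Hmgb2 and Pcna are high in all 10 libraries. Monocytes of TN1 tag_482 are at 0 for some genes detected in all other monocytes, such as Mcm2 and Mcm4. The same library has the highest monocyte values of other genes, such as Mcm3, Mcm5 and Top2a.

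Between cell types, 1 gene fell and 2 rose in monocytes when the difference was averaged over both tumours and tested with edgeR's quasi-likelihood test and Benjamini-Hochberg adjustment over all 13384 genes. Hmgb2 was lower in monocytes, and Mcm2 and Aurkb were higher. Over all genes tested, 15.5% were called higher and 12.4% lower, so 2 of 32 higher and 1 of 32 lower were no larger shares than that background. The fitted difference was positive for 26 of the 32 genes, with a median of 1.17 on the log2 scale beside 0.46 over all genes, of which 58.9% were positive. Without monocytes of TN1 tag_191 these medians were 0.50 and -0.05, and on log2(TPM + 0.1) they were 1.81 and 1.0. For 11 of the 32 genes the difference was smaller than its standard error. An unadjusted edgeR p under 0.05 was seen for 5 of the 32, against 40.9% of all genes. By ranges of CPM, 0 genes of the set were higher in every monocyte library and 1, Hmgb2, was lower, against 16% and 12.6% of all genes.

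**Figure D3:**
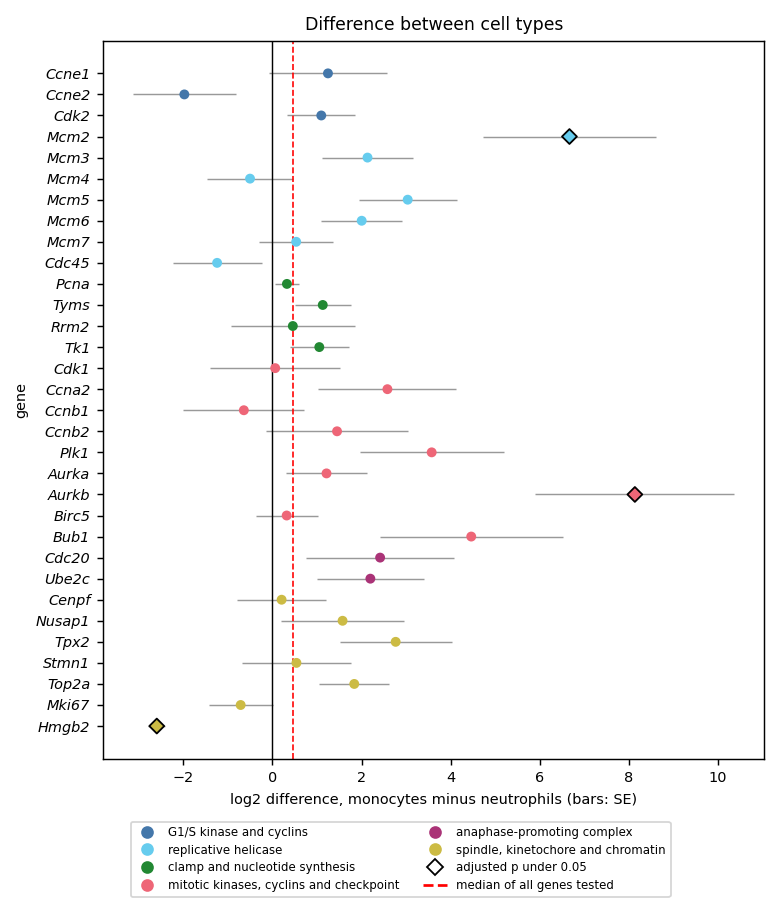
Log2 difference of monocytes minus neutrophils, averaged over both tumours, with standard errors for the 32 genes by role, diamonds for adjusted p under 0.05 and a dashed line at the median of all genes (0.46). Hmgb2 lies at -2.60, and Mcm2 and Aurkb lie at 6.67 and 8.13 with standard errors near 2.

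Among the G1/S genes, Cdk2, the kinase partner of cyclin E, was present in both cell types. Its CPM was 9.47, 0.143, 21.7, 12.2 and 24.4 in neutrophils of tag_191, tag_482, tag_367, tag_706 and tag_1341, and 18.9, 15, 24.8, 17.8 and 33.2 in monocytes. The ranges overlapped, and the low neutrophil value was that of TN1 tag_482. Cyclin E1 (Ccne1) reached at most 2.69 CPM in neutrophils and 3.22 CPM in monocytes, and cyclin E2 (Ccne2) at most 11.6 and 2.54. None of the 3 passed the test, and 2 of the 3 differences were positive.

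The replicative helicase, a ring of MCM proteins that Cdc45 helps to activate, gave 1 of the calls. Mcm2 (chr6:88883474-88898780, minus strand, GRCm38) had 0 CPM in 4 neutrophil libraries and 0.537 CPM, or 4 counts, in the one of TN2 tag_706. In monocytes it had 5.59, 0, 6.64, 9.39 and 11.9 CPM for tag_191, tag_482, tag_367, tag_706 and tag_1341, a total of 430 counts. All monocyte libraries but that of TN1 tag_482 lay above all neutrophils. The log2 difference was 6.67 ± 1.94 (SE) with an edgeR adjusted p of 0.0327. With so few neutrophil counts, Mcm2 passed the expression filter through its monocyte counts, so that p follows a selection on the higher group.

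The Mcm2 call was lost when any of 6 libraries was left out. Without monocytes of TN1 tag_191 the difference was 2.78 with an edgeR adjusted p of 1.0, since the remaining TN1 libraries of both cell types hold no Mcm2 count. The other libraries were neutrophils of tag_191, tag_482 and tag_367 and monocytes of tag_367 and tag_1341, with edgeR adjusted p from 0.0538 to 0.0885 without each. Over all 18 alternatives the adjusted p ran from 0.00209 to 1.0.

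For Mcm5 and Mcm3 a single neutrophil library, that of TN1 tag_482, stood apart. Mcm5 had 0.256, 21.5, 0.127, 0.269 and 0.153 CPM in neutrophils of tag_191, tag_482, tag_367, tag_706 and tag_1341, and 7.20, 31.8, 10.1, 9.67 and 2.22 CPM in monocytes. Only neutrophils of TN1 tag_482 entered the monocyte range, and the log2 difference was 3.04 ± 1.10 (SE) with an edgeR adjusted p of 0.0651. Leaving that library out gave 5.70 with an edgeR adjusted p of 0.00967.

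Mcm3 had 0.768, 21.2, 0.127, 3.36 and 2.90 CPM in neutrophils and 10.3, 50.9, 14.7, 21.5 and 8.0 CPM in monocytes in the same order. Here too the neutrophil library of TN1 tag_482 alone reached the monocytes. Without it edgeR called Mcm3, Mcm5, Mcm6 and Mcm7 higher in monocytes, 4 of the 7 helicase genes, and called Mcm2 and Aurkb no longer. That setting was looked at because the library stood apart, and it called 13.3% of all genes higher and 12% lower.

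Mcm6 had 0.256, 8.15, 3.42, 1.34 and 6.71 CPM in neutrophils and 17.4, 15.5, 11.7, 29.8 and 5.70 CPM in monocytes. Mcm7 had 0.640, 22.6, 8.87, 1.75 and 9.77 CPM in neutrophils and 10.1, 13.2, 12.8, 16.3 and 13.4 CPM in monocytes. In both genes the ranges overlapped through 1 library, monocytes of TN2 tag_1341 for Mcm6 and neutrophils of TN1 tag_482 for Mcm7.

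Mcm4 was detected in every neutrophil library. Its CPM was 26.2, 24.7, 33.8, 19.6 and 22.0 in neutrophils and 30.3, 0, 16.7, 25.8 and 20.6 in monocytes. The 0 was again in monocytes of TN1 tag_482, while the neutrophil library of that tag held 24.7 CPM. Cdc45 overlapped as well, at 0.610 to 10.9 CPM (median 3.71) in neutrophils and 0.120 to 4.04 CPM (median 2.79) in monocytes. Over the 7 genes, 5 differences were positive with a median of 2.0. Summed helicase TPM was 8.65 to 37.3 in neutrophils (median 15.8) and 39.5 to 78.3 in monocytes (median 45.5), without overlap on that scale. In CPM the sums overlapped, at 30.3 to 109 in neutrophils and 65.8 to 115 in monocytes, with neutrophils of TN1 tag_482 above 3 of the 5 monocyte libraries.

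The sliding clamp and nucleotide enzymes were measured in every library except Rrm2, and none passed the test. Pcna had 39.3, 64.4, 44.7, 50.6 and 41.5 CPM in neutrophils and 56.8, 84.4, 49.9, 63.2 and 44.5 CPM in monocytes. These ranges overlapped, whereas in TPM they did not (25.6 to 43.0 against 66.2 to 100.6), so the separation of Pcna depended on the scale. The processed pseudogene Pcna-ps2 was listed at 3.33 to 9.01 TPM in neutrophils and 17.6 to 22.7 TPM in monocytes, and reads of such a copy can be split with Pcna.

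Thymidine kinase (Tk1), which salvages thymidine, had 5.37, 2.00, 5.96, 2.55 and 10.2 CPM in neutrophils and 8.59, 8.06, 6.71, 8.85 and 20.2 CPM in monocytes. Thymidylate synthase (Tyms) had 3.84, 4.43, 10.4, 3.49 and 5.95 CPM in neutrophils and 6.23, 17.8, 5.18, 15.8 and 11.7 CPM in monocytes. Both genes overlapped between cell types, with neutrophils of TN2 tag_1341 highest for Tk1 and those of TN2 tag_367 highest for Tyms. Rrm2, the regulated subunit of ribonucleotide reductase, lay at 0 to 7.35 CPM in neutrophils and 0.120 to 7.95 CPM in monocytes.

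Among mitotic regulators, Aurkb, the kinase of the chromosomal passenger complex (chr11:69045647-69051664, plus strand), had 0 counts in all 5 neutrophil libraries. Monocytes had 7.41, 0, 4.16, 6.03 and 0.713 CPM for tag_191, tag_482, tag_367, tag_706 and tag_1341, or 223 counts in all. Again the monocyte library of TN1 tag_482 was at 0, level with the neutrophils, and that of TN2 tag_1341 was low. Against a floor of 3 counts over the 5 neutrophil libraries, the level pooled over the 5 monocyte libraries was at least 46.6-fold higher. That bound does not hold for each monocyte library. The fitted log2 difference, which depends on the prior count, was 8.13 ± 2.23 (SE) with an edgeR adjusted p of 0.0354. Aurkb passed the expression filter through its monocyte counts alone, so bound and p both follow a selection on the higher group.

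That call for Aurkb was lost without monocytes of TN1 tag_191 (edgeR adjusted p 1.0, log2 difference 4.02). It was also lost without neutrophils of tag_191, tag_482, tag_367 or tag_706 or monocytes of tag_367 or tag_706 (edgeR adjusted p 0.0525 to 0.0870). With the tag as a block the edgeR adjusted p was 0.0592. Over all 18 alternatives it ran from 0.00493 to 1.0. Birc5, a partner of Aurkb in the passenger complex, was seen in every library, at 2.28 to 9.38 CPM (median 3.0) in neutrophils and 2.53 to 7.46 CPM (median 5.69) in monocytes.

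Cdk1, the kinase that drives entry into mitosis, had 0, 10.4, 6.34, 0 and 0.305 CPM in neutrophils and 2.69, 7.34, 2.33, 2.61 and 2.61 CPM in monocytes. Neutrophils held both the lowest and the highest values. Its partners stayed low, cyclin A2 (Ccna2) at no more than 2.30 CPM in neutrophils and 6.58 CPM in monocytes, cyclin B1 (Ccnb1) at no more than 3.55 and 5.21, and cyclin B2 (Ccnb2) at no more than 2.03 and 7.75. For each of these 3 cyclins the highest monocyte value was in TN2 tag_706.

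Plk1, a kinase of mitotic entry, reached 0.537 CPM at most in neutrophils and 2.77 CPM in monocytes. The checkpoint kinase Bub1 had counts in 1 neutrophil library, at 0.403 CPM, and reached 2.81 CPM in monocytes. Aurka, the centrosomal Aurora kinase, lay at 0.305 to 4.43 CPM in neutrophils and 1.58 to 13.4 CPM in monocytes. In this group of 9, 8 differences were positive with a median of 1.45, and Aurkb alone passed the test.

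Both genes of the anaphase-promoting complex had positive differences, with a median of 2.31, and neither passed the test. Ube2c, its ubiquitin-conjugating enzyme, had 3.46, 2.15, 1.77, 0 and 0 CPM in neutrophils and 9.78, 7.94, 5.03, 2.33 and 4.83 CPM in monocytes. Monocytes of TN2 tag_706 alone lay within the neutrophil range, below TN1 tag_191. Cdc20, the activator of the complex, lay at 0 to 4.43 CPM in neutrophils and 0 to 9.87 CPM in monocytes.

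Of the spindle and chromatin genes, Hmgb2 (chr8:57511907-57515999, plus strand) had 565, 651, 561, 695 and 596 CPM in neutrophils of tag_191, tag_482, tag_367, tag_706 and tag_1341. In monocytes it had 125, 120.3, 95.9, 86.6 and 68.3 CPM. The lowest neutrophil library lay far above the highest monocyte library. The means were 614 ± 57.9 and 99.2 ± 23.6 CPM (SD, n = 5 each), and Hmgb2 fell by 2.60 ± 0.19 (SE) on the log2 scale in monocytes, with an edgeR adjusted p of 5.57e-05. It was called lower under all 18 alternatives, which gave -2.73 to -1.82 and an adjusted p of at most 0.00341.

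Top2a, which untangles DNA strands, had 6.78, 1.72, 8.74, 3.22 and 2.44 CPM in neutrophils and 19.9, 36.1, 7.22, 19.0 and 1.82 CPM in monocytes. Monocytes of tag_191, tag_482 and tag_706 were above all neutrophils, and those of TN2 tag_1341 were among the lowest libraries. Mki67, the antigen used most widely to count cycling cells, had 13.7, 3.29, 24.5, 7.79 and 13.7 CPM in neutrophils and 9.99, 1.32, 6.27, 10.6 and 8.79 CPM in monocytes. Its mean TPM was 1.11 ± 0.810 in neutrophils and 1.16 ± 0.644 in monocytes (SD, n = 5 each) and its ranges overlapped on both scales. Top2a and Mki67 both had their lowest neutrophil value in the library of TN1 tag_482.

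Stathmin (Stmn1), which destabilises microtubules, had 1.02, 13.6, 1.90, 4.16 and 0 CPM in neutrophils and 4.19, 4.81, 2.63, 16.9 and 1.35 CPM in monocytes. High values were single libraries, TN1 tag_482 in neutrophils and TN2 tag_706 in monocytes. Cenpf, Nusap1 and Tpx2, which act at kinetochores and spindle microtubules, reached at most 2.94, 0.858 and 1.27 CPM in neutrophils and 3.12, 3.12 and 11.1 CPM in monocytes. Over the 7 genes of this group, 5 differences were positive with a median of 0.54.

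The number of calls differed between tests and scales. In a limma fit to log2(TPM + 1), 13 genes of the set were called higher and 1 lower in monocytes, against 33.9% and 8.95% of all genes. That fit differs from edgeR both in scale and in test. A DESeq2 Wald test on the same counts called 5 higher and 1 lower, against 22.8% and 16.4% of all genes. Within TN1 limma called Cdk2 and Tk1 higher and Hmgb2 lower, against 18.4% and 6.49% of all genes, and DESeq2 called Top2a higher and Hmgb2 lower, against 15.2% and 11.4%. Within TN2 limma called 7 genes higher, among them Mcm2, Mcm3, Mcm6 and Pcna, and Hmgb2 lower, against 29.3% and 5.42%. DESeq2 called Aurkb, Mcm2 and Mcm5 higher and Hmgb2 lower there, against 13% and 11.7%.

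Within each tumour the cell types differed for 1 gene of the set, Hmgb2. In TN1 it was lower in monocytes by a log2 difference of -2.31 ± 0.30 (SE, edgeR adjusted p 0.00246), where 6.38% of all genes were called higher and 6.14% lower. Without both TN1 tag_482 libraries the difference was -2.20 with an edgeR adjusted p of 0.0653, from 1 library of each cell type with the spread taken from the TN2 groups. Over the 18 alternatives it ran from -2.41 to -1.75. The next genes by p were Mcm2 (7.74 ± 3.18, edgeR adjusted p 0.151), Aurkb (8.15 ± 3.37, 0.172) and Top2a (2.71 ± 1.25, 0.187). By range, 9 genes were higher in both TN1 monocyte libraries than in both neutrophil libraries, against 29.8% of all genes, namely Cdk2, Mcm6, Tyms, Tk1, Birc5, Cdc20, Ube2c, Tpx2 and Top2a. Ccne2, Cdc45 and Hmgb2 were lower, against 23.7% of all genes.

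In TN2 the log2 difference of Hmgb2 was -2.88 ± 0.25 (SE, edgeR adjusted p 0.000418), where 5.39% of all genes were called higher and 7.69% lower. Mcm5 followed at 5.23 ± 1.55 (edgeR adjusted p 0.0536), then Aurkb at 8.12 ± 2.76 (0.107) and Mcm2 at 5.59 ± 2.12 (0.123). With the tag as a block edgeR also called Mcm5, at 5.06 and an adjusted p of 0.0472. By range, 8 genes were higher in all 3 monocyte libraries, against 28% of all genes, namely Ccne1, Mcm2, Mcm3, Mcm5, Mcm7, Plk1, Aurkb and Ube2c. Hmgb2 alone was lower, against 18.7% of all genes. Ube2c was the 1 gene in the higher lists of both tumours.

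Between tumours, no gene of the set passed the edgeR test in neutrophils, where 0% of all genes were called in either direction. At an unadjusted p under 0.05 there were 625 genes, of which 1 belonged to the set, Mcm5. Its log2 difference of TN2 minus TN1 was -5.79 ± 1.63 (SE, unadjusted p 0.00540, edgeR adjusted p 0.943), from 152 counts in TN1 and 4 in TN2. Of the TN1 counts nearly all came from tag_482, as its per-library values above show. DESeq2 called 78 genes higher and 9 lower in TN2 (0.583% and 0.0672% of all), with Mcm5 among the lower, and limma on log2(TPM + 1) called 0 genes higher and 1 lower (0.00747% of all), none of the set.

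The other neutrophil genes with the smallest p were Ccne1 (-4.57 ± 2.05), Cdk2 (2.01 ± 1.16) and Mcm3 (-2.36 ± 1.38), each with an edgeR adjusted p of 0.943. Ccne1 turned to 2.15 without neutrophils of TN1 tag_191, and Mcm3 turned to 1.45 without those of TN1 tag_482. Cdk2 was 6.96 with an edgeR adjusted p of 0.0160 without neutrophils of TN1 tag_191, which leaves TN1 tag_482 with its 0.143 CPM as the only TN1 library, and 1.04 without that of tag_482. Of the 32 differences, 15 were positive, 16 were negative and Aurkb had no count in either group. Their median was -0.01 beside 0.22 over all genes, and 18 were smaller than their standard error. The median was -0.14 with genes of 3 counts or fewer in a group set to their bound. By range, Cdk2 was higher and Ube2c lower in TN2, against 11.8% and 5.91% of all genes.

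In monocytes no gene of the set and 0% of all genes passed the edgeR test between tumours. At an unadjusted p under 0.05 there were 379 genes, 0 of them in the set. Hmgb2 had the smallest p of the set, at -0.55 ± 0.26 (SE, TN2 minus TN1, unadjusted p 0.0558, edgeR adjusted p 1.0). Top2a (-1.58 ± 1.05), Ccne1 (2.39 ± 1.98) and Pcna (-0.43 ± 0.38) came next. Differences were positive for 16 genes and negative for 16, with a median of 0.10 beside 0.22 over all genes, and 26 were smaller than their standard error. DESeq2 called 0.127% of all genes higher and 0.0374% lower, and limma on log2(TPM + 1) called none, with 0 genes of the set in either.

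By range, Ccne1, Mcm2 and Rrm2 were higher in all TN2 monocyte libraries, against 12.4% of all genes. Cdk1, Ube2c, Top2a and Hmgb2 were lower, against 7.73% of all genes. Hmgb2, for instance, had 125 and 120.3 CPM in TN1 monocytes and 95.9, 86.6 and 68.3 CPM in TN2 monocytes. With 2 libraries against 3 such separations are frequent, as the shares over all genes show.

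**Figure D4:**
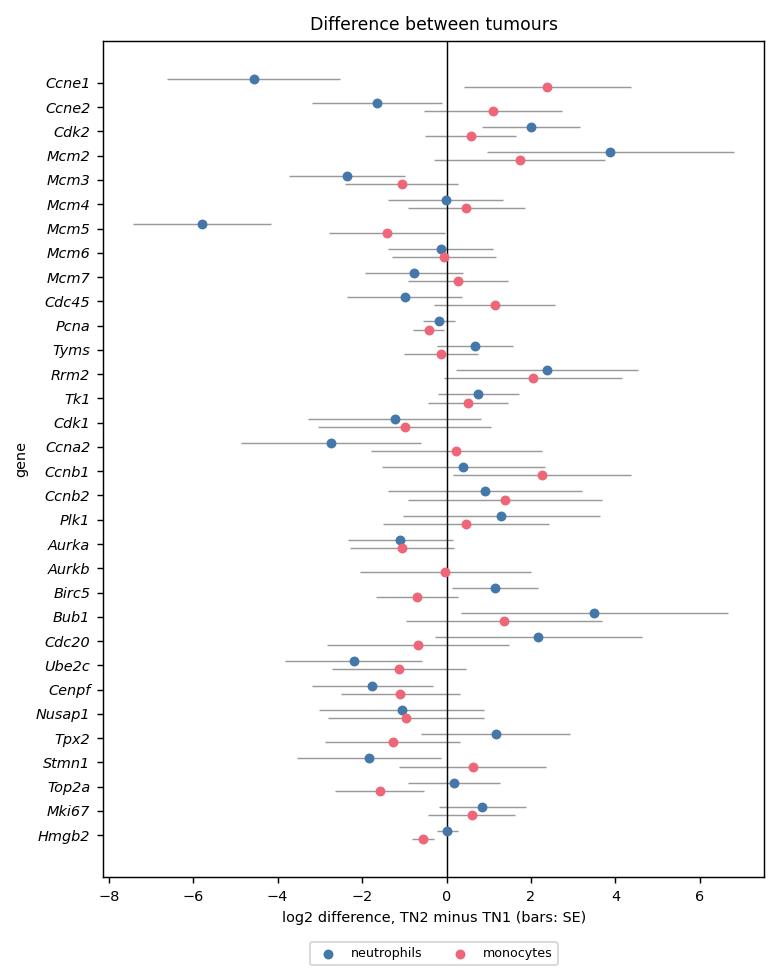
Log2 difference of TN2 minus TN1 with standard errors for the 32 genes, in neutrophils (blue) and monocytes (red), with Aurkb in neutrophils left out for want of counts. Points scatter on both sides of 0, with medians of -0.01 in neutrophils and 0.10 in monocytes, and none passes the threshold.

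Whether the tumour effect differed between cell types was tested as an interaction in edgeR, and 0 genes of the set and 0% of all genes passed. At an unadjusted p under 0.05 there were 472 genes, of which 1, Ccne1, was in the set, at 6.95 ± 2.90 (SE, unadjusted p 0.0379, edgeR adjusted p 1.0). Mcm5 (4.38 ± 2.12), Hmgb2 (-0.58 ± 0.36) and Birc5 (-1.84 ± 1.40) followed. Mcm5 turned to -0.95 without neutrophils of TN1 tag_482. DESeq2 called 0.0299% of all genes higher and 0.127% lower in this contrast, and limma on log2(TPM + 1) called 0.

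In TPM, much of the signal for several genes lay on transcripts not annotated as protein-coding. Without Hmgb2 and Pcna, protein-coding transcripts held 57.5% to 88.7% of the set's TPM in neutrophils and 70.5% to 86.1% in monocytes, against 91.0% to 94.6% over all protein-coding genes. For Tk1 the protein-coding share was 5.17% in neutrophils and 13.9% in monocytes, and 1 retained-intron transcript, Tk1-202, held 82.6% and 53.9% of its counts. Top2a had a protein-coding share of TPM of 14.7% in neutrophils and 54.6% in monocytes. Tyms had a share of 59.8% in neutrophils and 19.7% in monocytes. In counts, the scale of the edgeR test, these shares were larger. Protein-coding transcripts held 59.6 of 174.5 Top2a counts in neutrophils and 738 of 883 in monocytes. For Tyms they held 135 of 208 counts in neutrophils and 268 of 656 in monocytes. With protein-coding transcripts alone, a setting chosen after seeing the data, edgeR made the same 3 calls between cell types.

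**Figure D5:**
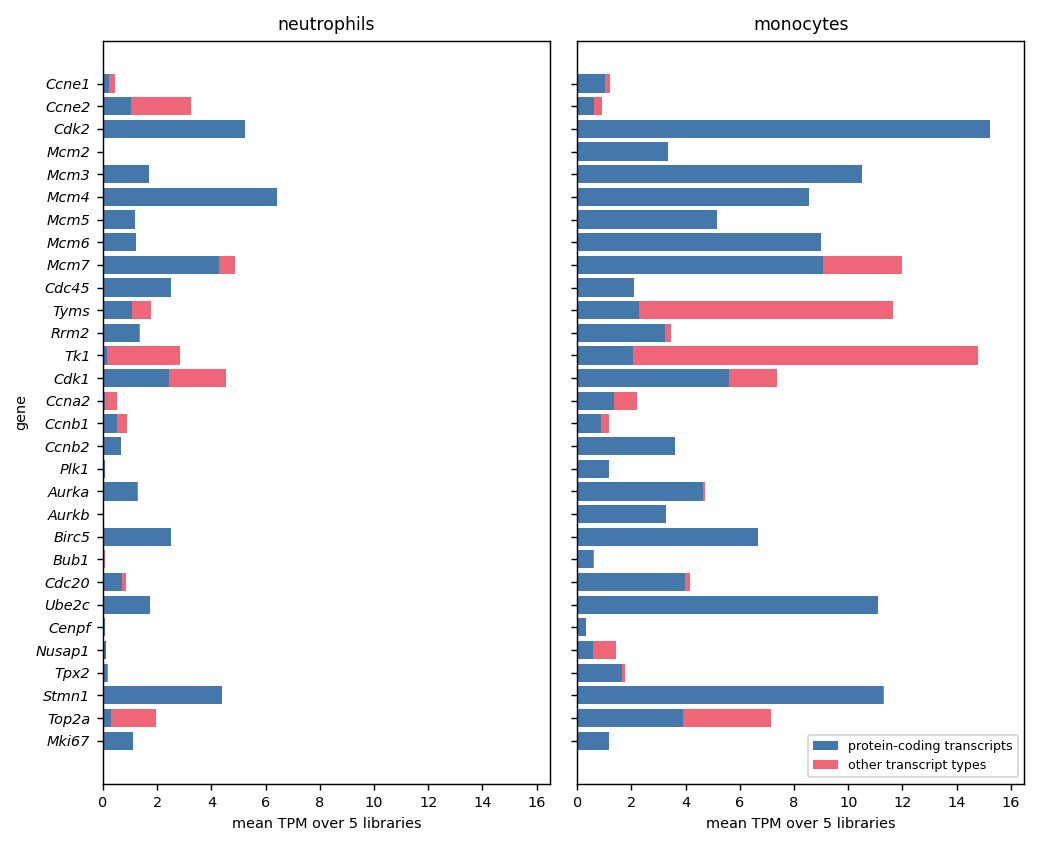
Mean TPM on protein-coding and on other transcripts for 30 genes (Hmgb2 and Pcna left out), in neutrophils and in monocytes. The bars of Tk1 consist mainly of other transcripts in both cell types, and that of Tyms does so in monocytes.

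Other genes of the pathway, from wider lists, moved in both directions between cell types. Of 40 S phase and replication fork genes tested, 3 were higher and 2 lower in monocytes, against 15.5% and 12.4% of all genes, with 31 differences positive and a median of 1.40 beside 0.46 over all genes. Both shares of calls were below the background. Prim1, the primase subunit, rose by 4.85 ± 1.20 on the log2 scale (SE, edgeR adjusted p 0.0141), Pole, the leading-strand polymerase, by 5.02 ± 1.46 (0.0326), and Ung, which removes uracil from DNA, by 6.05 ± 1.83 (0.0381). Each was near absent from neutrophils, with 14, 1 and 1 counts. Rpa2, which coats single-stranded DNA, was higher in neutrophils, at 43.9 ± 12.2 against 11.0 ± 5.73 CPM (SD, n = 5 each, edgeR adjusted p 0.0169).

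Of 47 G2 and mitosis genes tested, 3 were higher and 4 lower in monocytes, again smaller shares than the 15.5% and 12.4% of all genes, with a median of 1.08. Cenpm, a centromere protein, and the kinase Melk were higher in monocytes, by 6.81 ± 1.36 (SE, edgeR adjusted p 0.00631) and 6.31 ± 1.74 (0.0265). Like Hmgb2, the kinesin Kif23 and the Cdk-binding protein Cks2 were high in neutrophils. Kif23 had 95.7 ± 16 CPM in neutrophils and 11.0 ± 1.43 CPM in monocytes (SD, n = 5 each, edgeR adjusted p 8.62e-05). Cks2 had 290.8 ± 69.2 CPM in neutrophils and 38.7 ± 11.4 CPM in monocytes (edgeR adjusted p 0.000160). Securin (Pttg1) was lower in monocytes within TN1 (-2.38 ± 0.49, edgeR adjusted p 0.0138) and TN2 (-2.68 ± 0.41, 0.00289).

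The Cdk inhibitors Cdkn1a and Cdkn2d were higher in neutrophils than in monocytes. Of 10 G1 cyclins, kinases and inhibitors tested, 1 was higher in monocytes, Ccnd1 (3.63 ± 1.09, edgeR adjusted p 0.0328), and 4 were lower, against 15.5% and 12.4% of all genes. The Cdk inhibitor p21 (Cdkn1a) had 2392 ± 467 CPM in neutrophils and 711 ± 147 CPM in monocytes (SD, n = 5 each, edgeR adjusted p 0.000546). The inhibitor Cdkn2d and the G1 cyclin Ccnd3 were also lower in monocytes, by -1.75 ± 0.32 (edgeR adjusted p 0.00314) and -1.55 ± 0.26 (0.00201). Of 11 p53 targets, a list that also holds Cdkn1a, 8 were lower and 0 higher in monocytes, against 12.4% and 15.5% of all genes, with a median of -1.74. Sesn2 (-3.32 ± 0.26, edgeR adjusted p 6.46e-05) and the antiproliferative gene Btg2 (-3.41 ± 0.31, 0.000104) were among them.

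Of 18 E2F, pocket protein and MuvB-MYB-FOXM1 regulators tested, 1 was lower in monocytes and 0 higher, against 12.4% and 15.5% of all genes. That gene, E2f2, a transcriptional activator, had 53.8 ± 13.9 CPM in neutrophils and 7.30 ± 4.52 CPM in monocytes (SD, n = 5 each, edgeR adjusted p 0.00796). None of the 5 lists had a gene past the edgeR threshold between tumours in either cell type.

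The authors' deposited tables give no fold for 2 genes of the set in monocytes, Bub1 and Cenpf, and for 9 in neutrophils. Among the rest, the authors' deposited tables list 18 positive and 12 negative log2 folds of TN2 against TN1 in monocytes and 11 and 12 in neutrophils. The smallest p-values in the authors' deposited tables were 0.0560 for Mcm2 in monocytes (log2 fold 1.61) and 0.0688 for Cdk2 in neutrophils (log2 fold 1.85). Every adjusted p of the set there was 1.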

How the data were processed

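RNA was measured in 5 neutrophil and 5 monocyte libraries made by Smart-seq2, which uses PCR without molecular barcodes, so counts are not independent molecules. Per the labels, the authors assigned reads to the GRCm38 transcriptome with kallisto 0.42.3. The deposited files give an estimated count and a TPM per transcript. The authors' comparison tables, made with AltAnalyze per the labels, hold log2 group means, a log2 and a signed fold (score) and p-values, by a test not given in the sources used here.

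Gene values are sums over transcripts, assigned by GENCODE mouse release 21. Of 85276 transcripts 81839 (96.0%) matched, and the rest held 1.94% to 3.59% of counts. Counts were rounded and tested with edgeR 4.0.16 (R 4.3.3): TMM scaling, filterByExpr, glmQLFit and glmQLFTest on the 4 groups together, with 6 residual degrees of freedom and Benjamini-Hochberg adjustment over 13384 genes. The threshold was an adjusted p of 0.05. The script was tested on simulated data. Alternatives used DESeq2 1.42.0, limma 3.58.1, no filter, other scaling, a tag block, and left-out libraries. The members and lists were chosen with earlier results of these data known. Values per library are given for members past the threshold in any comparison, the 12 of highest mean TPM, Mki67, Top2a and Cdk1. Log2 differences are given for members past the threshold or, with fewer than 4, those of smallest p, and for up to 4 called genes of each pathway list. Promoters came from RefSeq (GRCm38.p6).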

Additional observations from a re-analysis of the deposited data

Results flagged for a closer look

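In 7 of 64 sets of 5 libraries (32 genes in 2 cell types), 1 library lay apart from the other 4 by the Dixon gap test on log2(TPM + 1). Chance marks about 1 in 20 such sets where values are normally distributed, which sets with many values at 0 are not. Where 4 libraries are at 0 the ratio is 1 whatever the remaining count, as for Mcm2 and Bub1 in neutrophils. Aurkb in neutrophils, at 0 throughout, could not be tested. The 7 sets therefore cannot be set against that rate. In monocytes of TN1 tag_482, Mcm4 was at 0 TPM against 7.52 to 13.4 in the others, and Cdc45 was at 0.0911 TPM, from 1 count, against 2.20 to 3.27. In neutrophils of the same tag, Mcm5 was at 5.75 TPM, from 150 counts, against 0.0341 to 0.0697 in the others.

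Neutrophils of TN1 tag_191 had Ccne1 at 1.93 TPM, from 21 counts, against 0 to 0.297. The other 3 sets concerned neutrophils of TN2 tag_706 and rested on 4 counts or fewer. They were Mcm2 at 0.135 TPM with 0 in the others, Plk1 at 0.214 TPM against 0 to 0.0561, and Bub1 at 0.287 TPM with 0 in the others.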

How the results depend on the processing

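The 3 calls between cell types became 6 with DESeq2, 14 with limma on log2(TPM + 1), 11 on log2(TPM + 0.1) and 5 without both TN1 tag_482 libraries. With those settings the 1 call in TN1 became 2, 3, 2 and 0, and the 1 call in TN2 became 4, 8, 7 and 4. The TN2 count was 2 without a filter. Leaving out 1 library at a time gave 1 to 5 calls over both tumours, 1 to 2 in TN1 and 1 to 2 in TN2. Between tumours it gave 0 to 2 in neutrophils, 0 to 1 in monocytes and 0 to 1 for the difference of effects, where 0 were called with all libraries. DESeq2 gave 1 call between tumours in neutrophils, Mcm5.

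Of 421 values of named genes under an alternative, 377 kept their direction and side of the threshold, 25 passed it anew, 15 no longer passed and 4 changed sign. Those 4 were Ccne1 in neutrophils between tumours without TN1 tag_191 (2.15, lowest -6.72 when 1 library is left out), Mcm3 there without TN1 tag_482 (1.45, lowest -3.31) and without both tag_482 libraries (1.35), and the difference of effects of Mcm5 without neutrophils of TN1 tag_482 (-0.95, highest 5.87). The cause was not tested, except that the left-out libraries held most of each gene's neutrophil counts. Within TN1, Mcm2 and Aurkb have no value without monocytes of tag_191, as no count remains.

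Neutrophil and monocyte libraries of a tag share only a number in the labels. Their deviations from the group means correlated at 0.0890 for the TN1 tags, -0.0569 for tag_367, 0.380 for tag_706 and 0.342 for tag_1341, and 4 of 5 tags matched best with their own number. In a group of 2 libraries the deviations mirror each other, so both TN1 tags match or fail together. Deviations in TN2 are tied through their mean as well. The number of matches therefore cannot decide whether libraries of a tag belong together. With the tag as a replicate block edgeR called 3 genes between cell types (Mcm2, Mcm5 and Hmgb2), 1 in TN1 and 2 in TN2, and 0 for the difference of effects. No block is possible between tumours, since each tag carries 1 tumour. Low counts limit most of the 30 minor genes, since most reach 5 counts in part of the libraries only.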
